A study of Homo sapiens with 10 samples.

Results

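Endovion (also SCO-101) is a small molecule known as a blocker of the volume-regulated anion channel and of the drug efflux pump ABCG2. The genes of these other targets, LRRC8A, LRRC8B, LRRC8C, LRRC8D, LRRC8E and ABCG2, were followed in SLAM-seq libraries of 22RV1, an established prostate cancer cell line. They were chosen by name, as known targets, and not by any measured value, though earlier results of these data were known. The 6 genes were among 31015 genes that the files cover. In SLAM-seq, 4-thiouridine is built into newly made RNA, and after alkylation it is read as a T-to-C change. A read with such a change (a T>C read) was counted as nascent RNA, all reads together as total RNA, and the T>C reads as a percentage of all reads of the gene as its labeled share.

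The study set out to learn how prostate cancer cells respond to inhibition of the splicing kinase SRPK1 and the transcription kinase CDK12. There were 10 libraries in 5 groups of 2. Control 22RV1 cells had no inhibitor, and it is not given whether they received the solvent. The other groups were given SRPIN340 (an SRPK1 inhibitor, 20 μM), Endovion (50 μM, used in the study as an SRPK1 inhibitor), THZ531 (a covalent inhibitor of CDK12 and CDK13), or THZ531 together with Endovion, each for 4 h. The dose of THZ531 was 100 nM in the methods and 150 nM in the series description. All groups, control included, were given 4-thiouridine for the last 10 min. There was no library without the label, so T>C reads from other sources, such as sequencing errors, could not be told apart. The labels do not say that the libraries of a group came from separate cultures, so p-values measure only the spread between these samples, which may be technical.

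Levels are in CPM, the counts-per-million of a library after TMM scaling, and for nascent RNA they are T>C reads scaled to the T>C reads of the library. The libraries held 19315560 to 30047897 reads in genes, of which 1011598 to 1576121 were T>C reads. The labeled share of a whole library was 5.66% ± 0.0435 (SD, n = 2) in control cells and 5.11% ± 0.0737 with Endovion, with the other groups between 5.14% and 5.43%. All 10 prostate luminal markers examined (HOXB13, FOXA1, KLK3 and others) were above 1 CPM, with a summed level of 1579 to 2150 CPM over the libraries. Their sum was lower than in control cells (2098 to 2150) with SRPIN340 (2040 to 2079) and with Endovion (1874 to 1958). It was lower still with THZ531 (1699 to 1767) and with THZ531 and Endovion (1579 to 1666). Its part in the results below was not tested. Of the fibroblast markers 1 of 5, COL1A1, was above 1 CPM (all 5 summed to 2.38 to 4.52), while the 3 leukocyte and 3 endothelial markers summed to at most 0.306 and 0.0318 CPM. In these bulk libraries, fewer cells of a kind and less RNA per cell cannot be told apart.

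The volume-regulated anion channel opens when a cell swells and lets chloride and small organic solutes out, so that the cell shrinks back. It is an assembly of LRRC8 proteins in which LRRC8A is the obligatory subunit, and LRRC8B to LRRC8E are the partners that set what passes. LRRC8D favors uptake and release of larger uncharged solutes and platinum drugs. ABCG2, the breast cancer resistance protein, is an ATP-driven pump that exports drugs and urate, and its gene is one of those that the aryl hydrocarbon receptor can switch on.

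LRRC8A lies on chromosome 9 (hg38, chr9:128882133-128918039, plus strand). LRRC8B (chr1:89524829-89597861), LRRC8C (chr1:89633072-89769903) and LRRC8D (chr1:89821014-89936611) follow each other on the plus strand of chromosome 1 within 411.783 kb. LRRC8E lies at chr19:7888505-7902021 on the plus strand and ABCG2 at chr4:88090150-88231628 on the minus strand. ABCG2 spans 141.5 kb with up to 17 exons in a transcript, against 13.5 kb to 136.8 kb for the LRRC8 genes. Reads were counted in 3′ UTR intervals, and 1 interval per gene was used, of 966 bases for LRRC8D up to 4821 bases for LRRC8B. The LRRC8C interval lies inside an unnamed gene of the same strand, ENSG00000271949, so that its reads cannot be assigned with certainty. The LRRC8B interval lies opposite LRRC8C-DT and the LRRC8E interval opposite ENSG00000214248.

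The aryl hydrocarbon receptor binds DNA at the core letters GCGTG, and the upstream windows of ABCG2 and LRRC8C are shown because they hold these letters, with that of LRRC8A, the main subunit, for comparison. Each is the 250 bases before a RefSeq transcription start (GRCh38.p14), 5′ to 3′ on the strand of the gene. The start that follows each window is within 5 bases of that of a transcript in the files. Capitals mark GCGTG, or CACGC where the letters are on the other strand. RefSeq windows were found for all 6 genes, 12 in all. The windows lie at chr4:88158640-88158889 (ABCG2, minus strand), chr1:89632870-89633119 (LRRC8C, plus strand) and chr9:128881883-128882132 (LRRC8A, plus strand).
ABCG2: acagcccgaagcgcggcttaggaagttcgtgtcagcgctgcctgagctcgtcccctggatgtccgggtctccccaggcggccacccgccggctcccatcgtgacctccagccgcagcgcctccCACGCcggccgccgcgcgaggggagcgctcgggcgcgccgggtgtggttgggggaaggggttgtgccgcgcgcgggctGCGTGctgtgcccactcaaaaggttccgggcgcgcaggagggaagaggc
LRRC8C: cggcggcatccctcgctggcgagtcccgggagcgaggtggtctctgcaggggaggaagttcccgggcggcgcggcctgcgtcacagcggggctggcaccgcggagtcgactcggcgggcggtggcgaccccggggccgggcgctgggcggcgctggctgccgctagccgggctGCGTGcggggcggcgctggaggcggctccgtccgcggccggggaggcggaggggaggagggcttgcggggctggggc
LRRC8A: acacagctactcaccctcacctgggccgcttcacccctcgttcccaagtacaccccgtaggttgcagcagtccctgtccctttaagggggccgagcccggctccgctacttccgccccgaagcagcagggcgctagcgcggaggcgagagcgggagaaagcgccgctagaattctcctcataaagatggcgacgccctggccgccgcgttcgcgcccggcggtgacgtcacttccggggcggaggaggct
The ABCG2 window shown holds 2 matches, 1 on each strand, and the LRRC8C window holds 1. Of the other ABCG2 windows, those at chr4:88231627-88231876 and chr4:88159291-88159540 hold none. Those at chr4:88158860-88159109 and chr4:88158910-88159159, which overlap each other, hold 2 each. No window of LRRC8A, LRRC8B, LRRC8D or LRRC8E holds one. Of the 35116 human promoter windows in the table, 32.2% hold at least 1 match, so the letters are common, and a match is a description and not a binding site.

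In the controls LRRC8A was by far the most abundant of the 6 genes. Per kilobase of counted interval, its level in total RNA was 213 to 232 CPM (the range of the 2 control libraries). LRRC8D followed at 16.6 to 21.9, then LRRC8B at 10.5 to 11.6 and LRRC8E at 9.62 to 11.8, and these last genes overlapped. LRRC8C was at 0.629 to 1.39 and ABCG2 at 0.528 to 0.563 CPM per kilobase, which did not overlap. Among the 14690 genes tested in total RNA, the control level in CPM, without the length, put LRRC8A at the 97.7th percentile, LRRC8B at the 78.5th, LRRC8D at the 56.8th, LRRC8E at the 48.1st, LRRC8C at the 33.2nd and ABCG2 at the 17.0th. Reads of a 3′ library need not scale with the length of the interval, and without the length LRRC8B stood above LRRC8D. The order of the levels per kilobase was the same in the group means of all 5 groups, and LRRC8B and LRRC8E, which overlapped in the controls, with SRPIN340 and with Endovion, were apart with THZ531 (LRRC8B 16.6 to 17.5, LRRC8E 7.02 to 11.5) and with THZ531 and Endovion (16.4 to 16.6 and 7.88 to 10.2).

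**Figure D1:**
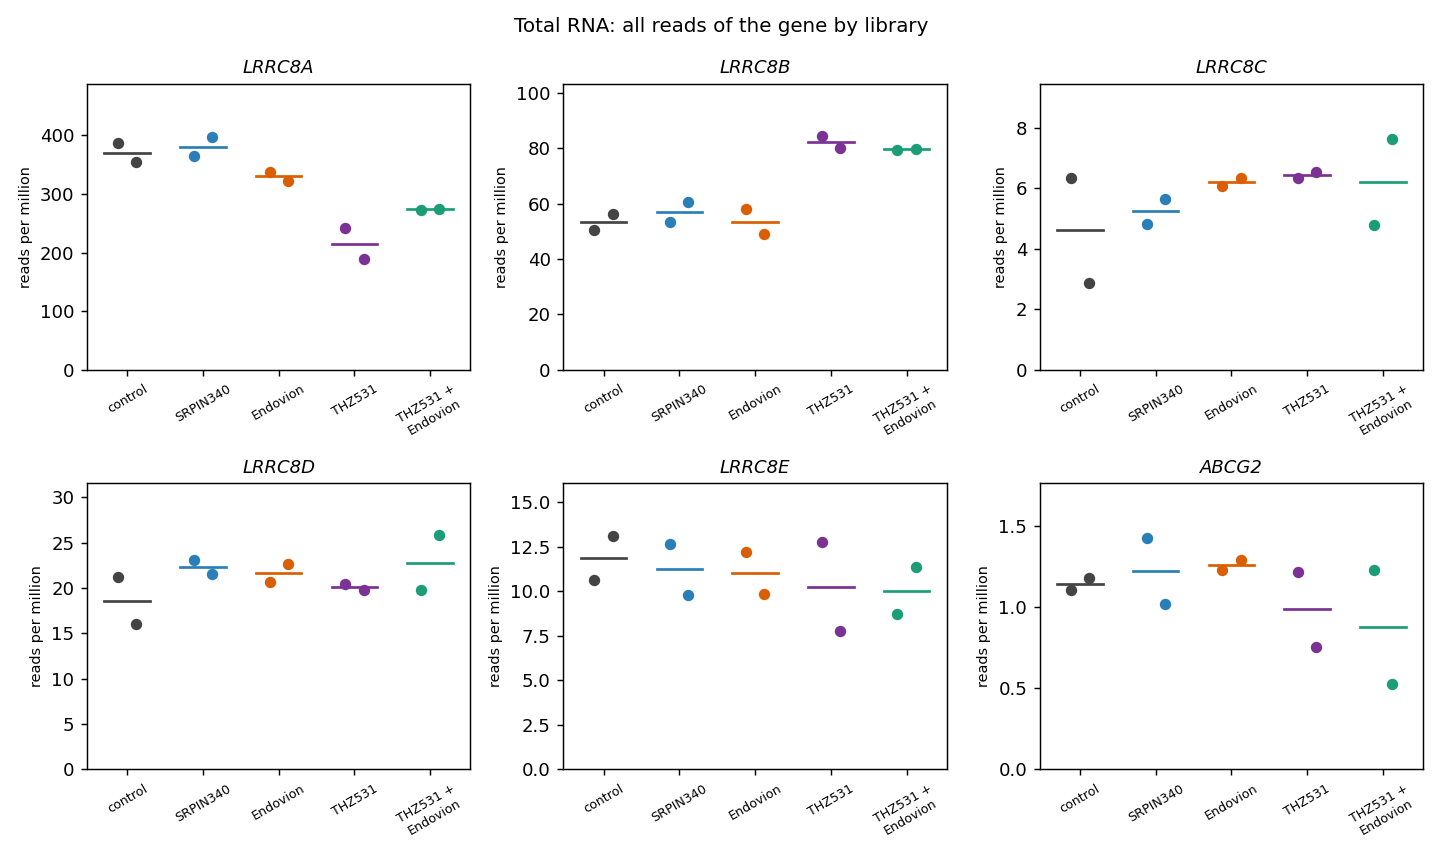
Total RNA of the 6 genes by library, in CPM; each point is a library and each line the mean of the 2 libraries of a group. LRRC8A sits at 188 to 242 with THZ531, below both control libraries, and LRRC8B at 80.1 to 84.3, above them.

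With Endovion, the compound that acts on the proteins of these genes, no member was called at an adjusted p under 0.05 in nascent RNA (0 of 4 tested, where 2.66% of all genes tested were called), in total RNA (0 of 6, background 11.4%) or in labeled share (0 of 4, background 0.292%). edgeR gave no member an unadjusted p under 0.05 in any of the 3 measures, and DESeq2 called none in nascent or total RNA. LRRC8A held 10841 and 8427 reads in the control libraries and 8824 and 6517 with Endovion, which is 386 and 354 against 338 and 322 CPM. The Endovion libraries were both below the controls, and the log2 fold change was −0.17 (SE 0.12), with a 95% interval of −0.42 to 0.08 and an adjusted p of 0.387. Its T>C reads were 400 and 285 against 268 and 241 (257 and 229 against 206 and 232 CPM, overlapping), a log2 fold change of −0.16 with an interval of −0.52 to 0.21. As percentages the intervals ran from −25.2% to 6.03% in total RNA and from −30.1% to 15.3% in nascent RNA.

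LRRC8B had 1414 and 1334 reads in control cells and 1512 and 991 with Endovion (50.4 and 56.1 against 57.9 and 49.0 CPM). The groups overlapped, and the log2 fold change in total RNA was 0.01, with an interval of −0.27 to 0.28. LRRC8D had 594 and 381 reads in control cells and 539 and 457 with Endovion, and its log2 fold change of 0.21 had an interval of −0.16 to 0.59. For LRRC8E the total reads were 299 and 312 against 320 and 199, with a log2 fold change of −0.10 (−0.63 to 0.42). The differences of these 3 partner subunits were within the spread of their replicates.

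ABCG2 was near the lower limit of the assay. It had 31 and 28 reads in the control libraries, 38 and 32 with SRPIN340, 32 and 26 with Endovion, 33 and 14 with THZ531 and 28 and 10 with THZ531 and Endovion. The Endovion libraries were at 1.22 and 1.29 CPM and the controls at 1.11 and 1.18 CPM. The log2 fold change of ABCG2 in total RNA was 0.14 (SE 0.51, interval −0.94 to 1.21, adjusted p 0.895). In percent the interval ran from −47.8% to 131%, so that changes of ABCG2 within it were not excluded. Only 16 T>C reads of ABCG2 were counted in all 10 libraries, too few for the test of nascent RNA. In replicate 1 of THZ531 with Endovion there were 0 T>C reads among 28 reads, which allows a share of up to 10.7%, and in replicate 2 0 of 10, which allows up to 30% (counting error only). THZ531 replicate 2 had 0 of 14 (up to 21.4%). The SRPIN340 libraries differed, with 0 of 38 (up to 7.89%) in replicate 1 and 7 of 32 in replicate 2, a share of 21.9% with a 95% Wilson interval of 11.02% to 38.8%.

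Other target genes of the aryl hydrocarbon receptor were called in total RNA with Endovion, while ABCG2 was not called with any treatment. Of 10 listed targets, all tested in total RNA, 5 rose (CYP1A1, CYP1A2, CYP1B1, NFE2L2 and TIPARP) and 1 fell (LRATD1) with Endovion, where 11.4% of all genes tested were called, with a median log2 fold change of 0.86 beside 0.02 over all genes tested. CYP1A1 went from 141 and 87 reads to 4808 and 4817 (log2 fold change 5.59, adjusted p 2.12e-11). CYP1B1, an enzyme that oxidizes xenobiotics and steroids, went from 1092 and 1007 reads to 3641 and 4799 (2.21, adjusted p 0.00101). TIPARP, a feedback inhibitor of the receptor, went from 83 and 57 to 397 and 382 (2.66, adjusted p 0.00247). With THZ531 alone 3 of the 10 rose and 2 fell (30.7% of all genes called), TIPARP among the former, to 310 and 360 reads (2.505, adjusted p 0.000451), with CYP1A1 (1.51, adjusted p 2.57e-05), while CYP1B1 was not called (0.01). For THZ531 and Endovion together, 5 rose and 2 fell (29.0% of all genes called), with CYP1A1 at 5.08 and TIPARP at 3.46. With SRPIN340 edgeR called 0 of the 10 (background 1.96%, and 3 had an unadjusted p under 0.05) and DESeq2 called 2, NFE2L2 and TIPARP.

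With SRPIN340 no member was called either (0 of 4 in nascent RNA, background 1.04%, 0 of 6 in total RNA, background 1.96%, and 0 of 4 in share, background 0.181%). edgeR gave none an unadjusted p under 0.05 and DESeq2 called none in nascent or total RNA. LRRC8A had 9746 and 12486 reads (364 and 397 CPM), overlapping the control libraries, and its log2 fold change was 0.04 (−0.21 to 0.29) in total RNA and 0.02 (−0.33 to 0.38) in nascent RNA. LRRC8D had 616 and 677 reads, a log2 fold change of 0.26 in total RNA (−0.11 to 0.63), and LRRC8B 1426 and 1911 reads, a log2 fold change of 0.10 (−0.17 to 0.37).

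SRPIN340 and Endovion are described in the study as structurally distinct, and they were used at different doses (20 and 50 μM), so that their values are set side by side as given. LRRC8A was at 364 and 397 CPM with SRPIN340 and at 338 and 322 with Endovion. In the direct fit of Endovion against SRPIN340, no member was called in nascent RNA (0 of 4, background 0.0603%) or total RNA (0 of 6, background 0.0340%), and no member had an unadjusted p under 0.05 in edgeR or was called by DESeq2. The difference for LRRC8A was −0.21 in total RNA (log2, interval −0.46 to 0.05), which does not show that the compounds act alike.

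THZ531 changed the RNA of LRRC8A and LRRC8B in opposite directions. LRRC8A, the obligatory subunit, fell in both measures, and LRRC8B, a partner subunit, rose in total RNA. The T>C reads are part of all reads, so the 2 measures are not independent. In total RNA 2 of 6 members were called, beside 30.7% of all genes tested, and in nascent RNA 1 of 4, beside 7.46%. With these numbers of members, the shares called were close to the background in total RNA, and the result is the direction and size of the 2 genes rather than their number.

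LRRC8A had 6554 and 3514 total reads with THZ531, against 10841 and 8427 in the control libraries. These were 242 and 188 CPM against 386 and 354, so that both treated libraries were far below both controls. The log2 fold change was −0.78 (SE 0.12, interval −1.04 to −0.53, adjusted p 0.000235), or −41.9%. Over 6 other ways of processing, the log2 fold change ran from −0.81 to −0.77, and it stayed called when either control or either THZ531 library was left out.

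The T>C reads of LRRC8A fell from 400 and 285 to 239 and 126. In nascent CPM this was 257 and 229 for the controls and 156 and 128 with THZ531, without overlap. The log2 fold change in nascent RNA was −0.77 (SE 0.18, interval −1.14 to −0.40, adjusted p 0.00381), close to that in total RNA. The call was lost without control replicate 1 (−0.67, adjusted p 0.0501) and without THZ531 replicate 2 (−0.65, adjusted p 0.124). Over the 7 other ways of processing its adjusted p ran from 0.00266 to 0.0289. The labeled share of LRRC8A was 3.69% and 3.38% in control cells and 3.65% and 3.59% with THZ531, a log2 difference of 0.13 with an interval of −0.16 to 0.43.

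LRRC8B had 2287 and 1494 total reads with THZ531, which was 84.3 and 80.1 CPM, where the controls had 50.4 and 56.1. Both treated libraries lay above both controls, and the log2 fold change was 0.63 (SE 0.13, interval 0.36 to 0.90, adjusted p 0.00198), a gain of 54.4%. It too stayed called without either control or either THZ531 library. Its T>C reads were 42 and 30 in control cells and 81 and 35 with THZ531 (27.0 and 24.1 against 52.7 and 35.6 CPM). Here the groups did not overlap either, but the log2 fold change of 0.80 (interval 0.04 to 1.56) did not pass the correction over all genes (adjusted p 0.207).

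The remaining members were not called with THZ531. LRRC8D had 554 and 368 reads, a log2 fold change of 0.11 in total RNA (−0.26 to 0.48), and 89 and 45 T>C reads, a log2 fold change of −0.09 in nascent RNA (−0.72 to 0.53). LRRC8E had 346 and 145 reads, 12.8 and 7.77 CPM where the controls had 10.7 and 13.1, and its log2 fold change was −0.20 (−0.72 to 0.32). ABCG2 had a log2 fold change of −0.19 in total RNA (−1.28 to 0.90).

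**Figure D2:**
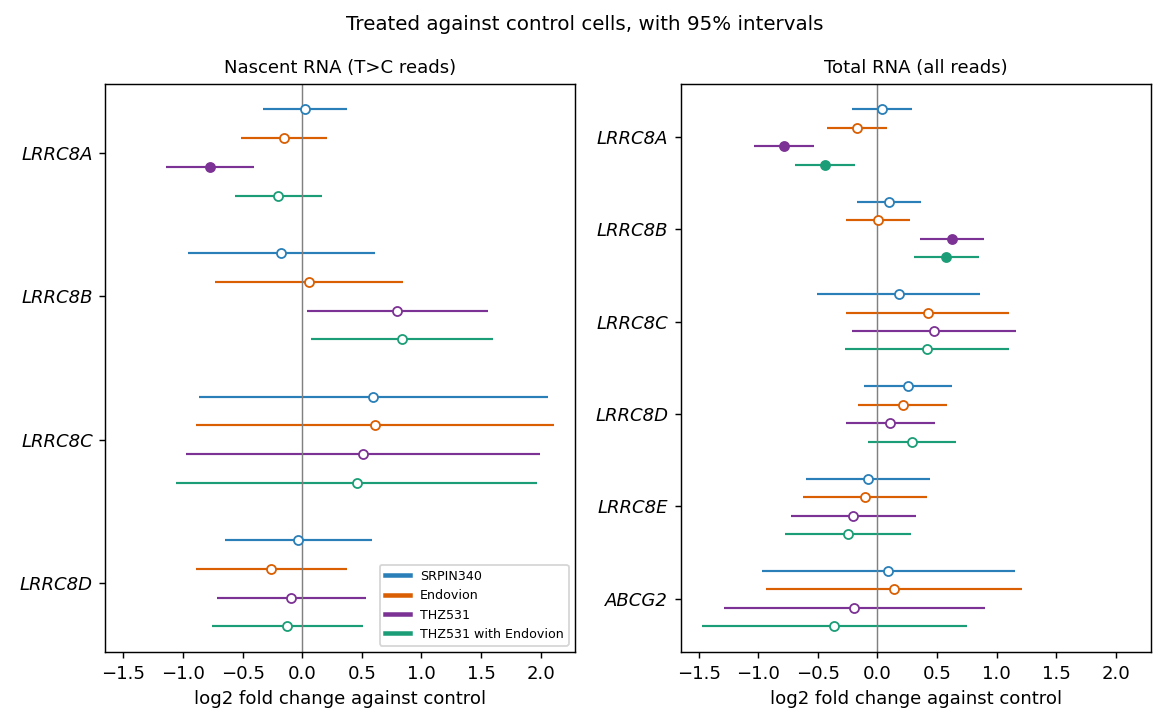
Log2 fold changes of each gene against control cells in nascent RNA (left) and total RNA (right), with 95% intervals; filled points had an adjusted p under 0.05 and colors give the treatment. The filled points are LRRC8A with THZ531 in nascent RNA and, in total RNA, LRRC8A (below 0) and LRRC8B (above 0) with THZ531 and with THZ531 and Endovion.

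The result of LRRC8C in total RNA depended on which control library was kept. Its total reads were 178 and 68 in the control libraries, 129 and 178 with SRPIN340, 159 and 128 with Endovion, 172 and 122 with THZ531 and 109 and 146 with THZ531 and Endovion. Control replicate 2, at 2.86 CPM, was below all other libraries, whereas control replicate 1, at 6.35, was among the treated ones. In the fit with all libraries LRRC8C was not called in any comparison, with log2 fold changes in total RNA of 0.42 with Endovion (−0.27 to 1.11), 0.47 with THZ531 and 0.42 with both. Without control replicate 1 it was called in total RNA with Endovion (1.05, adjusted p 0.0457), with THZ531 (1.10, adjusted p 0.0235) and with both (1.04, adjusted p 0.0318). Without control replicate 2 the same values were −0.08, −0.02 and −0.08.

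With THZ531 and Endovion together, the same 2 genes were called in total RNA (2 of 6, background 29.0%) and none in nascent RNA (0 of 4, background 8.10%). In nascent RNA LRRC8B alone had an unadjusted p under 0.05 in edgeR, and DESeq2 called no member. LRRC8A had 6217 and 5248 total reads, 273 and 275 CPM, below both controls. Its log2 fold change was −0.44 (SE 0.12, interval −0.69 to −0.19, adjusted p 0.0122), or −26.2%. The call was lost without replicate 2 of the combination (−0.44, adjusted p 0.0590), and over the 6 other ways of processing the adjusted p ran from 0.000898 to 0.0211. Its T>C reads were 244 and 221, or 207 and 217 CPM where the controls had 257 and 229, with a log2 fold change of −0.20 (−0.56 to 0.16, adjusted p 0.570).

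LRRC8B had 1807 and 1526 total reads with THZ531 and Endovion, 79.2 and 79.8 CPM, above both controls. The log2 fold change was 0.58 (SE 0.13, interval 0.31 to 0.85, adjusted p 0.00361), a gain of 49.4%. In nascent RNA it had 47 and 53 T>C reads, with a log2 fold change of 0.84 (interval 0.07 to 1.60) that did not pass the correction (adjusted p 0.180). LRRC8D had a log2 fold change of 0.29 (−0.08 to 0.66) in total RNA, LRRC8E of −0.25 (−0.77 to 0.28) and ABCG2 of −0.36 (−1.47 to 0.75), none of them called.

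**Figure D3:**
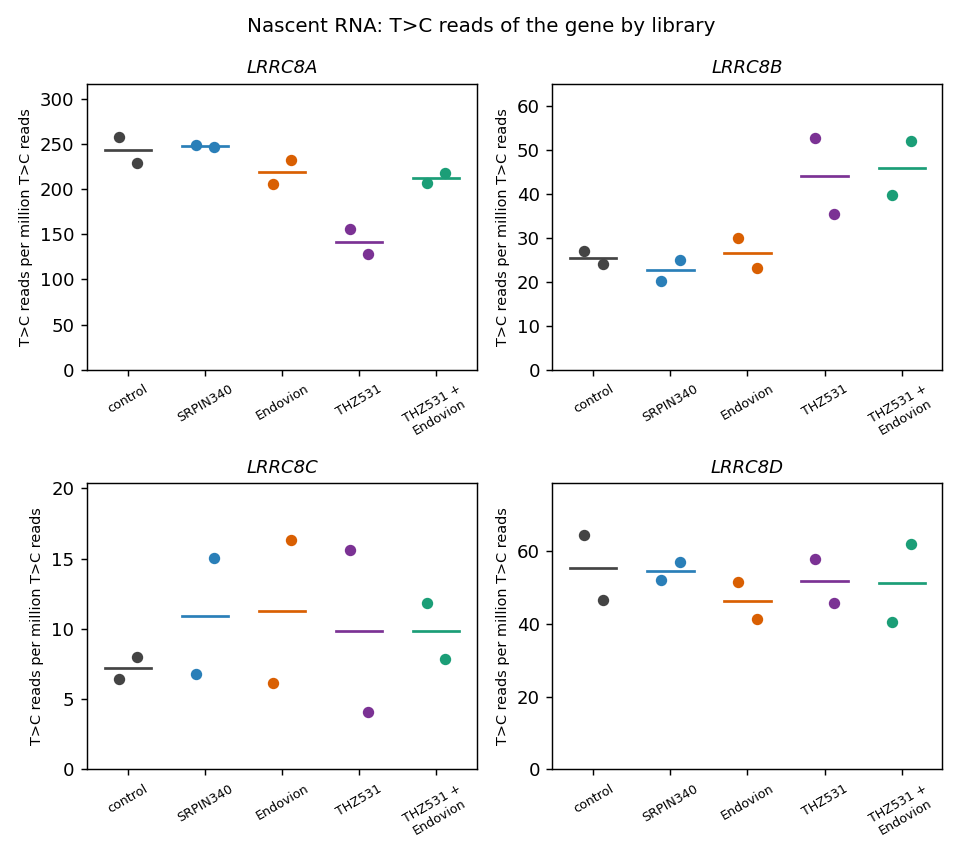
Nascent RNA of the 4 genes with enough T>C reads to be tested, in CPM of T>C reads; points are libraries and lines are means of 2. LRRC8A is at 128 to 156 with THZ531 and at 207 to 217 with THZ531 and Endovion, and the libraries of LRRC8C run from 4.07 to 16.4.

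The effect of adding Endovion to THZ531 was compared directly, since the comparisons above share their control libraries. LRRC8A was higher with THZ531 and Endovion than with THZ531 alone in each library, 273 and 275 against 242 and 188 CPM in total RNA and 207 and 217 against 156 and 128 CPM in nascent RNA. The log2 differences were 0.35 (SE 0.12) and 0.57 (SE 0.19), and neither passed the correction over all genes (adjusted p 0.241 and 0.260). No member was called in total RNA (0 of 6, background 0.511%) or nascent RNA (0 of 4, background 0.322%), by edgeR or DESeq2, and LRRC8A was the only member with an unadjusted p under 0.05 in either measure.

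The interaction term asks whether Endovion acted differently on THZ531-treated cells than on untreated cells. For LRRC8A it was 0.51 in total RNA (SE 0.17, interval 0.16 to 0.87, adjusted p 0.267) and 0.73 in nascent RNA (SE 0.26, interval 0.21 to 1.25, adjusted p 0.357). No member was called in either (0 of 6, background 0.00681%, and 0 of 4, background 0.302%), and LRRC8A alone had an unadjusted p under 0.05. DESeq2 called none. The term for LRRC8A in total RNA was called under 2 alternatives, without the filter on low counts (0.55, adjusted p 0.0403) and without THZ531 replicate 1 (0.75, adjusted p 0.0344).

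With THZ531 the LRRC8 reads had another makeup than in the controls, with less LRRC8A and more LRRC8B. LRRC8A supplied 80.7% ± 0.893 (SD, n = 2) of the reads of the 5 LRRC8 genes in control cells, 79.9% ± 0.508 with SRPIN340 and 78.2% ± 0.620 with Endovion. With THZ531 it supplied 64.2% ± 2.72 and with THZ531 and Endovion 69.8% ± 1.41. The reads of LRRC8A per read of LRRC8B in total RNA went from 7.67 and 6.32 in control cells to 2.87 and 2.35 with THZ531 and 3.44 and 3.44 with the combination (reads, not levels per length). In T>C reads the ratio was 9.52 and 9.50 in control cells, 2.95 and 3.60 with THZ531 and 5.19 and 4.17 with THZ531 and Endovion. The summed LRRC8 level in total RNA was 459 ± 22.9 CPM in control cells, 422 ± 17.2 with Endovion, 334 ± 44.5 with THZ531 and 392 ± 9.86 with both. These ratios describe the changes tested above and had no test of their own.

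**Figure D4:**
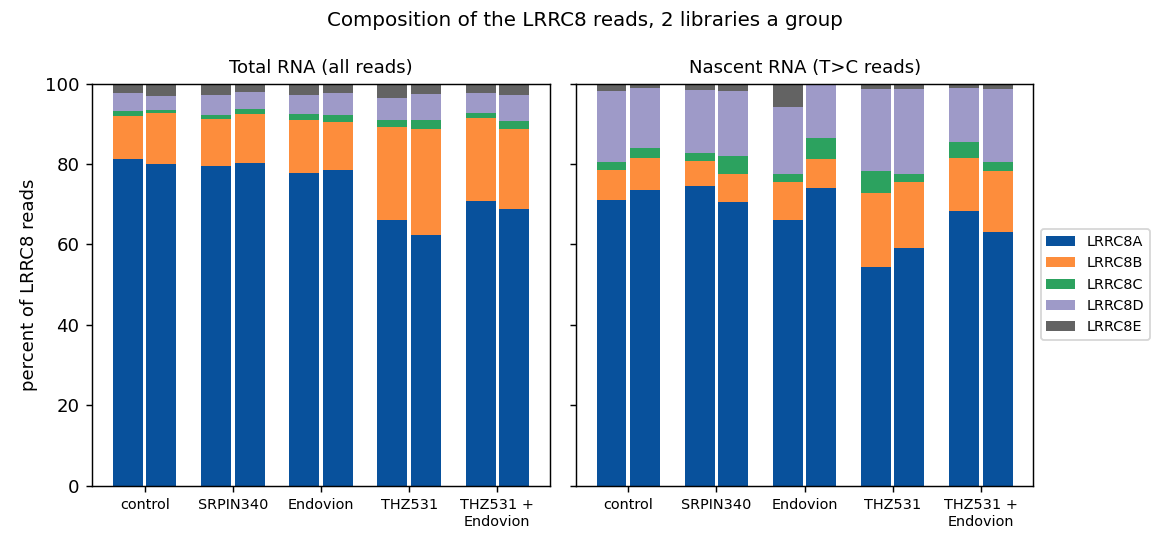
Share of each LRRC8 gene among the reads of the 5 LRRC8 genes, in percent, for total RNA (left) and nascent RNA (right); each bar is a library. LRRC8A makes up 80.1% to 81.4% of total reads in control cells and 62.3% to 66.1% with THZ531, while LRRC8B goes from 10.6% to 12.7% up to 23.1% to 26.5%.

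The labeled share ranged widely between the members. In the controls it was 16.8% and 15.2% for LRRC8D, at the 94.2nd percentile of the tested genes, whose median was 5.19%. LRRC8A had 3.54% ± 0.218 (the 25.1st percentile) and LRRC8B 2.61% ± 0.510 (the 10.7th). LRRC8C had 5.62% and 14.7% in the 2 control libraries, with 95% Wilson intervals that cover counting error only and overlap (from 3.08% up in the first and from 8.19% up in the second). T positions made up 25.3% of the LRRC8A interval and 35.4% to 36.2% of those of LRRC8B, LRRC8C and LRRC8D, and the part of this in the shares was not tested. Per covered T position, the conversion rate was 0.146% ± 0.00202 for LRRC8A, 0.129% ± 0.0183 for LRRC8B and 0.559% ± 0.0293 for LRRC8D in the controls.

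No member was called in labeled share with THZ531 (0 of 4, background 0.312%), with THZ531 and Endovion (0 of 4, background 1.05%) or between the combination and THZ531 (0 of 4, where 0 of 9946 genes, or 0%, were called in edgeR and 493 had an unadjusted p under 0.05). LRRC8A had shares of 3.92% and 4.21% with THZ531 and Endovion, above both controls, and its log2 difference of 0.40 (interval 0.11 to 0.69) had an adjusted p of 0.192. It was the only member with an unadjusted p under 0.05 in share, and by conversion rate, which is not relative to the library, the value was 0.14, with no test. LRRC8D had 16.8% and 15.2% in control cells and 12.4% and 9.41% with Endovion, 12.5% and 13.4% with SRPIN340, 16.1% and 12.2% with THZ531 and 10.6% and 12.8% with THZ531 and Endovion. Its Endovion libraries were both below the controls, and the log2 difference was −0.40 with an interval of −1.14 to 0.34 (adjusted p 0.778).

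**Figure D5:**
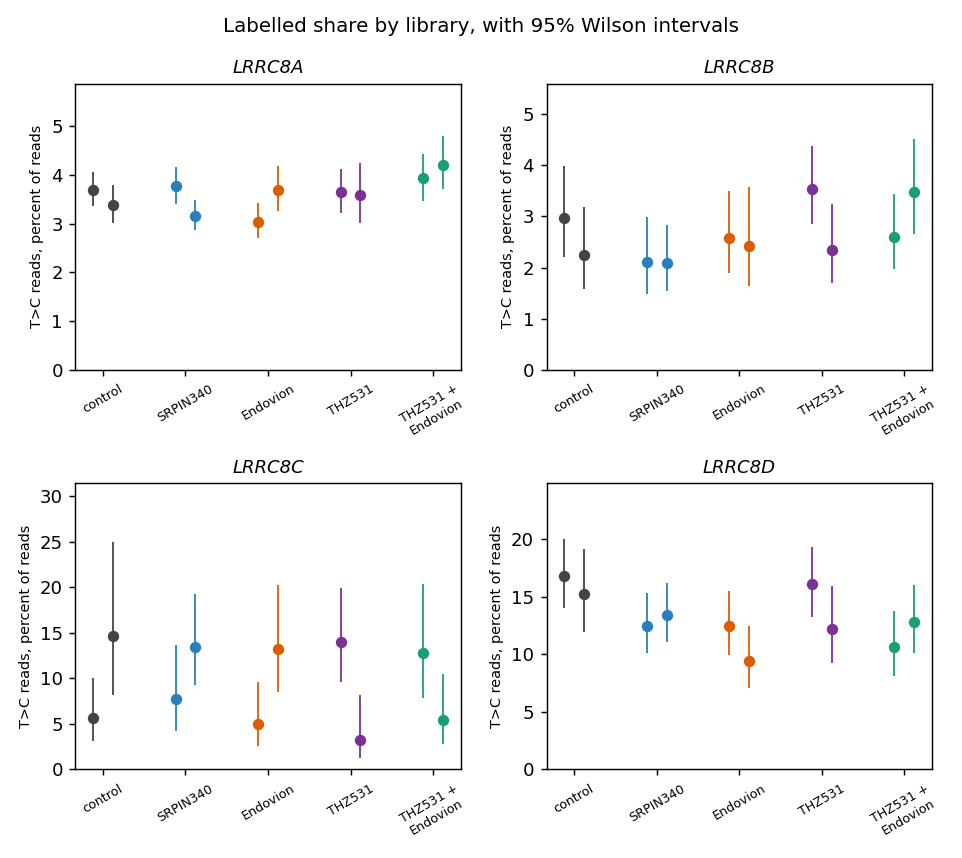
Labeled share of the 4 tested genes by library, in percent of the reads of the gene, with 95% Wilson intervals for counting error. LRRC8D lies between 9.41% and 16.8% and LRRC8A between 3.04% and 4.21%, whereas the libraries of LRRC8C run from 3.28% to 14.7%.

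LRRC8E had few T>C reads and was not tested in nascent RNA. They numbered 10 and 4 in control cells, 8 and 10 with SRPIN340, 6 and 3 with THZ531, 4 and 5 with THZ531 and Endovion, and 24 and 1 with Endovion. The 24 T>C reads of Endovion replicate 1 carried 54 conversions, and the other Endovion library had 1 of each, so the Endovion libraries were the highest and the lowest of all 10.

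The gene lists used here were chosen with earlier results of these data known. Genes of chloride transport and cell volume control that are not LRRC8 genes were set beside the members. Of 35 listed genes, 28 were tested in total RNA and 19 in nascent RNA. In total RNA 4 rose and none fell with Endovion, 1 rose with SRPIN340, 7 rose and 3 fell with THZ531 (TRPV4 and WNK3 among the latter), and 6 rose and 2 fell with both (CLCN4 and TRPV4). TRPV4, WNK3 and CLCN4, and the CYP1A2 and NFE2L2 named above, were named after their values were seen. The numbers called, 4, 1, 10 and 8 of 28, stand beside 11.4%, 1.96%, 30.7% and 29.0% of all genes tested, and with Endovion, THZ531 and both they were near those shares. Their median log2 fold change with Endovion was 0.29, beside 0.02 over all genes tested. The genes that rose with Endovion were CLIC4, a chloride intracellular channel protein, SLC6A6, the taurine transporter, TTYH3, a tweety family protein, and NFAT5, the transcription factor of the response to hypertonicity.

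CLIC4 had 1270 and 828 total reads in control cells and 2082 and 1767 with Endovion, a log2 fold change of 1.06 (SE 0.14, adjusted p 0.00101), and it also rose with SRPIN340 (0.83), THZ531 (0.99) and the combination (1.27). SLC6A6 had 360 and 387 reads against 820 and 639 with Endovion, a log2 fold change of 1.11 (SE 0.18, adjusted p 0.00249). TTYH3 rose by 0.72 and NFAT5 by 0.42 on the log2 scale. These 3 genes were also called with THZ531 alone, SLC6A6 at 0.78, TTYH3 at 0.77 and NFAT5 at 0.45, and with the combination, at 1.12, 0.69 and 0.60. With SRPIN340 they were at 0.55, 0.38 and 0.24 and were not called (adjusted p 0.114, 0.220 and 0.252 in edgeR). Of the 28 genes tested in total RNA, 8 had an unadjusted p under 0.05 with SRPIN340 and 12 with Endovion. In nascent RNA edgeR called 0 of the 19 with Endovion (background 2.66%) or with SRPIN340 (background 1.04%). Of these 19, 7 and 5 had an unadjusted p under 0.05, and DESeq2 called 0 in both. With THZ531, TTYH3 (1.59) and CLIC4 (0.86) rose in nascent RNA (of these DESeq2 called TTYH3), and SLC6A6 rose with the combination (1.68).

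Of 20 other ABC transporters listed, 9 were tested in total RNA and 5 in nascent RNA. In total RNA 1 of the 9 was called with Endovion (background 11.4%), 3 with THZ531 (30.7%) and 2 with both (29.0%), near the shares over all genes. With Endovion 1 rose in total RNA, ABCC10, from 45 and 35 reads to 88 and 67 (log2 fold change 1.11, SE 0.34, adjusted p 0.0447), beside ABCG2 at 31 and 28 against 32 and 26. ABCC10, a multidrug resistance protein, also rose with THZ531 (1.51) and the combination (1.47). With SRPIN340 it had 60 and 140 reads and a log2 fold change of 1.12, similar to that with Endovion. That difference was not called (adjusted p 0.0880 in edgeR). ABCC2, the exporter of conjugated organic anions, fell with THZ531 (−0.93, from 423 and 406 reads to 276 and 122) and the combination (−1.05), and ABCC5, which exports cyclic nucleotides, rose with THZ531 (0.70). In nascent RNA the only call was ABCC2 with the combination (−1.78, background 8.10%). With Endovion edgeR called 0 of the 5 (background 2.66%, and 1 had an unadjusted p under 0.05) and DESeq2 0. In total RNA with SRPIN340 both tools called 0 of the 9 (background 1.96% in edgeR), and 2 had an unadjusted p under 0.05 in edgeR.

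The genes whose total RNA followed each member most closely over the 10 libraries were sought among 8796 genes with at least 100 reads in every library. Pearson correlations of log2 CPM are given as a description, since the points share their libraries and treatments. They are the highest of 8796 genes over 10 libraries, and such a search alone can give high values. For LRRC8A the closest were EPHA4 (r = 0.98) and SMG1 (r = 0.97), and for LRRC8B ZMAT3 (r = 0.97) and ZNF622 (r = 0.96). For LRRC8C they were ENSG00000285330 (r = 0.95) and NAA20 (r = 0.94), for LRRC8D PGBD5 (r = 0.95) and RCBTB1 (r = 0.92), for LRRC8E PPM1N (r = 0.91) and SNAPC2 (r = 0.89), and for ABCG2 PRR11 (r = 0.90) was among the closest.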

How the data were processed

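SLAM-seq libraries of 22RV1 cells (5 groups of 2, groups taken from the sample titles) were prepared by the authors with a 3′ mRNA kit with UMIs and read as single ends. The authors ran SLAM-DUNK on the raw reads and deposited, per library, read counts and T>C read counts for 104653 3′ UTR intervals on hg38. Whether UMIs were collapsed, and the SLAM-DUNK version, are not given in the sources used here, so PCR copies may be among the counts. The submitters' processing notes also name Bowtie2 2.3.4.1, SAMtools 1.6 and DESeq2 1.38.2. A 3′ count does not show splicing or the gene body, and a read without a covered T cannot be labeled.

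Intervals were named through GENCODE 44 (92910 of 96427 on chromosomes matched, and 3.53% of T>C reads stayed unmatched). Where intervals of 1 gene overlapped, only that with the highest read total was used, since 48.8% of T>C reads are otherwise counted again. Counts were tested across all genes with edgeR 4.0.16 in R 4.3.3 (TMM, filterByExpr, quasi-likelihood, all 10 libraries in 1 fit, 5 residual degrees of freedom), on 9946 genes in nascent RNA and 14690 in total RNA, with Benjamini-Hochberg adjustment over all of them and calls at an adjusted p under 0.05. LRRC8E and ABCG2 did not pass the filter in nascent RNA. The labeled share was tested in a fit of both read classes (with and without a conversion), as a treatment by class term with library as a block and a TMM factor for each read class, so it is relative to the library. CPM use TMM library sizes. The edgeR test replaced the DESeq2 test of the study, which was run as an alternative (DESeq2 1.42.0). Intervals on shares are 95% Wilson intervals and cover counting error only, and the limit for a count of 0 is 3 counts.

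The 2 libraries of a group differed by more than sampling noise in all groups (chi-square per degree of freedom 15.1 to 23.7).

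The members and gene lists were chosen with earlier results of these data known. Named genes were the 6 members, the 4 genes with the smallest p per list and measure among those called against control, and the 2 most correlated genes per member. A few genes that this rule names are not reported here.

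Alternatives were DESeq2, no filter, plain sums of intervals, the interval with most reads, 2-group fits, the replicate number as a block, leaving out each library, for nascent RNA scaling by total reads, and for share a common library size (absolute share) and the conversion rate. Fits were checked on simulated counts for THZ531 against control. A true log2 change of 1 was called in 71.88% of the changed genes in total RNA, 27.55% in nascent RNA and 10% in share. For a true log2 change of 2 these were 89.8%, 73.47% and 58%. Smaller changes in nascent RNA and share could therefore often be missed. Sequences are from RefSeq (GRCh38.p14).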

Additional observations from a re-analysis of the deposited data

How the results depend on the processing

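The loss of LRRC8A and the gain of LRRC8B in total RNA with THZ531 kept their direction and their call under every alternative run. The 2 libraries a group, and counts under 30 T>C reads per library for LRRC8C, LRRC8E and ABCG2, limit what could be detected. With nascent RNA scaled by total reads, the median log2 fold change of all genes with Endovion was −0.10, and changes there are relative to it. In the main fit this median was −0.0135.

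The number of members called in total RNA for the interaction rose to 1 with no filter on low counts (LRRC8A). When each library was left out, it ran from 0 to 1 for the interaction, from 0 to 1 for Endovion (LRRC8C), from 1 to 3 for THZ531 with Endovion, and in nascent RNA from 0 to 1 for THZ531. The replicate numbers are only numbers: deviations of same-numbered libraries correlated between −0.0713 and 0.0620 in nascent RNA and −0.15 and 0.20 in total RNA. With the replicate block the members called in total RNA with THZ531 were still 2, and it changed no member's call. Over all genes the block moved the calls with SRPIN340 in total RNA from 288 to 96. DESeq2 gave 849 there, 229 against 75 for Endovion added to THZ531, 23 against 5 for Endovion against SRPIN340 and 181 against 1 for the interaction in total RNA, and in nascent RNA 66 against 103 for SRPIN340 and 8 against 30 for the interaction.

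Some uncalled differences near 0 changed sign, and the cause was not tested. In nascent RNA with scaling by total reads these were LRRC8A with SRPIN340 (−0.0025) and LRRC8B with Endovion (−0.0379). In total RNA they were LRRC8A with SRPIN340 with no filter (−0.00025) and in the 2-group fit (−0.0132), and LRRC8B with Endovion under DESeq2 (−0.0292), no filter (−0.0318), plain sums (−0.0064) and the 2-group fit (−0.0355). With 1 library size for both read classes the share difference of LRRC8A was −0.0396 with SRPIN340 and −0.0829 with Endovion. By conversion rate, with no test, it was −0.10, −0.19, −0.08 and 0.14 with SRPIN340, Endovion, THZ531 and the combination.

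Leaving out each library also turned the sign of uncalled differences. In total RNA the ranges for LRRC8C were −0.0775 to 1.05 with Endovion, −0.31 to 0.81 with SRPIN340, −0.0188 to 1.10 with THZ531 and −0.0832 to 1.04 with the combination. For ABCG2 they were −0.17 to 0.32 with SRPIN340, −0.65 to 0.0362 with THZ531 and −1.18 to 0.11 with the combination. LRRC8E ranged from −0.32 to 0.0433 with Endovion, −0.29 to 0.0937 with SRPIN340 and −0.66 to 0.0452 with THZ531. LRRC8D ranged from −0.0168 to 0.36 with Endovion and −0.12 to 0.26 with THZ531. LRRC8A ranged from −0.0622 to 0.0983 with SRPIN340, and LRRC8B from −0.0416 to 0.19 with SRPIN340 and −0.14 to 0.12 with Endovion.

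In nascent RNA LRRC8A ranged from −0.0407 to 0.13 with SRPIN340 and LRRC8B from −0.15 to 0.22 with Endovion. LRRC8C ranged from −0.23 to 1.17 with Endovion, −0.0884 to 1.05 with SRPIN340 and −0.81 to 1.11 with THZ531. LRRC8D ranged from −0.46 to 0.0101 with Endovion, −0.22 to 0.25 with SRPIN340, −0.29 to 0.18 with THZ531 and −0.45 to 0.15 with the combination. In share LRRC8A ranged from −0.12 to 0.23 with Endovion and −0.0669 to 0.20 with SRPIN340, and LRRC8D from −0.28 to 0.0347 with THZ531.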
